A study of Mus musculus with 9 samples.

Results

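TRBV3, TRBV4 and TRBV5 are 3 neighbouring variable gene segments near the 5′ end of the mouse T cell receptor beta locus. Their members here were the productive beta-chain contigs whose first V call named TRBV3, TRBV4 or TRBV5, counted as distinct combinations of TRBV gene, TRBJ gene and junction nucleotides, called rearrangements here. Across 8 tables there were 5565 such rearrangements among 27448 of all TRBV genes. TRBV3 gave 1630 of them, TRBV4 gave 1477 and TRBV5 gave 2458. A repeated clone counted as 1 in these numbers, so that they describe how often a segment was used and not how far its cells had divided.

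A T cell builds its beta chain by joining a TRBV, a TRBD and a TRBJ segment, and enzymes trim the ends and add bases without a template at each joint. The junction so formed begins at a conserved cysteine codon at the end of the V segment and makes the loop that lies over the peptide. The earlier part of the V segment carries the loops that mostly contact the MHC molecule. In the older mouse naming TRBV3 is Vβ16, TRBV4 is Vβ10 and TRBV5 is Vβ1.

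The libraries came from female mice aged 10 to 11 months. 5xFAD mice carry transgenes under the neuronal Thy1 promoter and are a model of amyloid deposition, and WT mice were the comparison. Cells came from the deep cervical lymph nodes (dCLN), from the superficial cervical ones (sCLN) and from the inguinal ones (iLN). Each node type gave 1 library from 5xFAD and 1 from WT animals, and these are called the 6 node libraries. A CD4-titled dCLN library labelled WT and a mixed library of all nodes and both genotypes were described beside them, and were put in no test. How many animals entered a library is not given in the sources used here, so no p-value measures the spread between animals. Tests between genotypes measure the spread over 3 node types. Tests of a gene against the other TRBV genes measure the spread over the 6 node libraries, which may share animals. The edgeR and limma fits estimate such a spread with all genes or pairs of a comparison together. It need not be the spread of 1 gene or pair, and in edgeR's tests counting error enters as well.

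Depth ranged from 1963 to 4762 productive TRB contigs in the 6 node libraries, with a median of 8 to 10 UMIs per contig, and was 6963 in the CD4-titled and 4102 in the mixed library. The labels' cell type was immune cells, and every contig was TRA or TRB. The CD4-titled library labelled 5xFAD was left out by the rule of the members, for its overlap with another. Of its 6915 barcodes, 6829 stood also in the CD4-titled library labelled WT, 6821 of them with the same beta rearrangement. Which label is right for these cells could not be settled. The genotype of the CD4-titled library and of its clones is therefore not known here. Among the other 35 pairs of tables at most 47 barcodes were shared and none carried the same beta rearrangement. A cell with the invariant TRAV11–TRAJ18 chain of NKT cells carried a member in 0 of 20 cases. A cell with the TRAV1–TRAJ33 chain of MAIT cells did so in 5 of 30. Beside these counts, which were not tested, the members made up 17.5% to 22.1% of all rearrangements in the 8 tables. Only part of the cells had both chains: a TRA chain was found for 40.2% of TRBV5 barcodes in the iLN 5xFAD library, the lowest value, against 66.8% in the iLN WT library.

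In the GENCODE annotation of GRCm38 all 3 segments lie on the plus strand of chromosome 6. Trbv3 (ENSMUSG00000076463.2) spans 41048290 to 41048828, Trbv4 (ENSMUSG00000107486.1) spans 41059394 to 41059886 and Trbv5 (ENSMUSG00000076465.2) spans 41062332 to 41062803. Each has 2 exons, the second holding the V region. Trbv3 begins 294 bases after the end of Trbv2, Trbv4 begins 10565 bases after the end of Trbv3, and Trbv5 begins 2445 bases after the end of Trbv4. The segments end in the following bases, read from the annotated transcripts from the cysteine codon of the junction onwards. They are shown because the junction results turn on them, and capitals mark the bases after the first 4 codons, which the 3 segments share.
TRBV3: tgtgccagcagcTTAGCCACA
TRBV4: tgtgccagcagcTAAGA
TRBV5: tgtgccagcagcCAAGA
TRBV5 ends in a glutamine codon (CAA) at codon 5 of the junction and TRBV3 in a leucine codon (TTA), whereas TRBV4 has the stop codon TAA there, in frame. A productive TRBV4 rearrangement therefore cannot keep its germline end whole.

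How much of the germline end was left differed between the segments. TRBV5 rearrangements kept 15.3 ± 0.07 of 17 germline junction bases, TRBV3 kept 13.9 ± 0.39 of 21, and TRBV4 kept 12.3 ± 0.13 of 17 (mean of library means ± SD, n = 6 node libraries each). The bases were counted up to the first mismatch with the sequences shown above, so an added base that happened to match counted as kept. The whole germline end stood in 42.6% ± 2.46 of TRBV5 rearrangements and in none of TRBV4. No TRBV3 rearrangement kept all 21 annotated bases, but 33, 9 and 1 of 805 kept 17, 18 and 19 in the pooled node libraries. The annotated TRBV3 end is longer than those of TRBV4 and TRBV5, and whether all of it can enter a junction was not tested. The absence of whole TRBV3 ends therefore rests on that annotated length. For the same reason the 21 bases of TRBV3 are not a like measure to the 17 of TRBV4 and TRBV5. TRBV4 never kept more than 14 bases in any of the 8 tables, and 56.0% ± 4.06 of its rearrangements kept 12 or fewer, against 31.8% ± 8.97 for TRBV3 and 5.74% ± 1.12 for TRBV5 (SD, n = 6). The ranges of TRBV4 and TRBV5 over the 6 libraries did not overlap, with 51.3% to 63.4% and 3.90% to 6.90%. This count was added after the data had been seen, and it has no test because the germline sequences themselves set its upper limit.

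**Figure D1:**
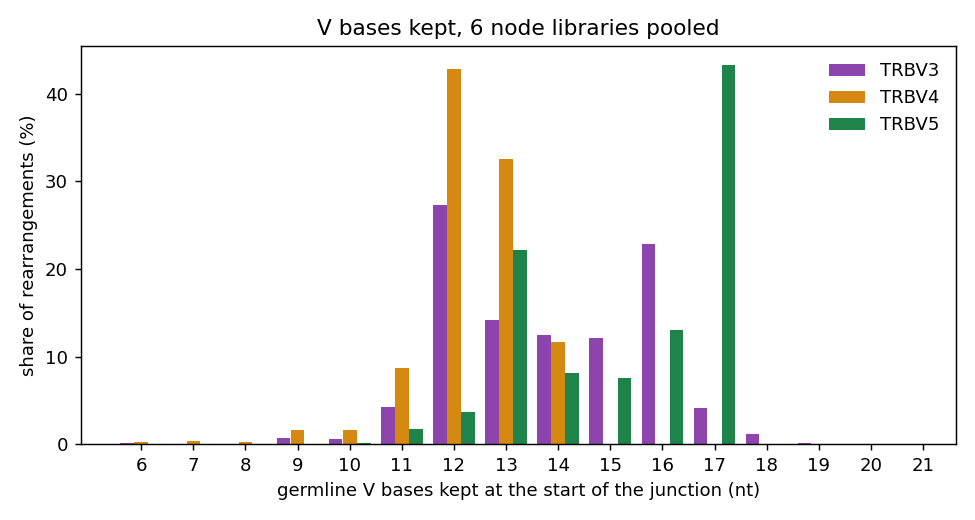
Share of rearrangements (%) by the number of germline V bases kept at the start of the junction (nt), for TRBV3 (805), TRBV4 (981) and TRBV5 (1529 rearrangements) in the 6 node libraries pooled. TRBV4 peaks at 12 and 13 bases (42.8% and 32.5%) and has no bar beyond 14, TRBV5 peaks at 17 (43.3%), and TRBV3 has peaks at 12 and 16 (27.3% and 22.9%). Counts under 6 bases are not drawn.

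The residue at codon 5 followed the germline end closely for TRBV5 and loosely for the others. It was glutamine in 68.8% ± 2.11 of TRBV5 rearrangements, against 1.58% ± 0.99 for TRBV3 and 4.70% ± 1.12 for TRBV4 (SD, n = 6). Leucine stood there in 51.8% ± 7.26 of TRBV3 rearrangements. In TRBV4 no residue had a majority: serine took 14.7% ± 4.00, proline 17.0% ± 2.68, leucine 13.3% ± 3.92 and tyrosine 11.4% ± 3.14. Tyrosine at that place was found in 1 of 1529 TRBV5 and 8 of 805 TRBV3 rearrangements. The TAA codon was found in 0 of 981 TRBV4 rearrangements, as a filter on productive contigs requires.

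Junctions of TRBV5 were the longest of the 3. Their mean length was 43.4, 43.7 and 43.5 nt in the 5xFAD libraries of dCLN, sCLN and iLN, and 43.8 nt in each of the 3 WT libraries. The other TRBV genes averaged 41.4 to 41.7 nt in the same 6 libraries, so the ranges did not overlap. The difference was 2.10 nt (SE 0.12, limma over 6 libraries, adjusted p = 3.9e-07) and was 2.06 to 2.17 nt with each library left out. TRBV3 was longer than the other genes by 0.37 nt (SE 0.13, adjusted p = 0.037), and TRBV4 differed by -0.30 nt (SE 0.11, adjusted p = 0.045). Both calls were fragile: the TRBV3 call held only without the dCLN WT library, and the TRBV4 call only without the iLN 5xFAD library, with adjusted p of 0.056 to 0.099 and 0.076 to 0.14 without each of the others. Junction length passed this test for 12 of 18 TRBV genes (66.7%), so passing it is common among TRBV genes. In codons, the median junction was 15 for TRBV5 and 14 for both TRBV3 and TRBV4, and 53.1% of TRBV5 junctions had 15 codons or more, against 36.8% for TRBV3 and 30.2% for TRBV4 in the 6 libraries pooled.

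The CD4-titled and mixed libraries, which no test used, gave the same order for TRBV5. Its mean length was 42.9 nt in the CD4-titled library, against 41.4 nt for the other genes there, and 43.5 against 41.9 nt in the mixed library. TRBV4 averaged 40.6 nt against 41.6 nt in the CD4-titled library, and 41.9 against 42.0 nt in the mixed one. TRBV3 lay below the other genes in the CD4-titled library (41.3 and 41.6 nt) and above them in the mixed one (42.6 and 42.0 nt).

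Added bases, the non-templated bases on both sides of the D segment, gave no firm difference for TRBV5. By the deposited lengths TRBV5 had 0.44 more than the other genes (SE 0.11, limma, adjusted p = 0.0029) and TRBV3 differed by -0.25 (SE 0.10, adjusted p = 0.037). For the TRBV4*02 and TRBV5*05 alleles the germline entry stopped short of the end of the segment, so that germline bases beyond it were counted as added. Added bases passed for 7 of 18 genes (38.9%). With alleles of a full germline entry alone, a choice made after seeing the data, the TRBV5 difference was -0.04 (adjusted p = 0.77) and that of TRBV3 -0.18 (adjusted p = 0.12). The TRBV3 call was also lost without dCLN WT, sCLN 5xFAD, sCLN WT or iLN 5xFAD (adjusted p = 0.064 to 0.12). TRBV3 and TRBV5 contigs also had fewer UMIs than the other genes, by -0.11 (SE 0.03, adjusted p = 0.020) and -0.14 (SE 0.04, adjusted p = 0.012) on the log2 scale, and TRBV4 differed by 0.01. UMI number passed for 12 of 18 genes (66.7%), and the TRBV3 call was lost without dCLN 5xFAD (adjusted p = 0.051) or sCLN WT (adjusted p = 0.064).

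Use of the 3 segments was the next question, by genotype and by node. TRBV5 was steady: it took 9.29%, 9.41% and 8.68% of rearrangements in the 5xFAD libraries of dCLN, sCLN and iLN, and 9.70%, 9.12% and 8.35% in the WT libraries. TRBV4 took 5.54%, 5.52% and 5.82% in the 5xFAD libraries, and 6.11%, 5.71% and 6.85% in the WT libraries. It was a little lower in 5xFAD at each node, yet the genotypes overlapped. TRBV3 took 5.39%, 7.20% and 2.99% in the 5xFAD libraries, and 4.26%, 3.04% and 3.95% in the WT libraries.

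TRBV3 was the variable member. Its highest share was 2.41 times its lowest, against 1.24 times for TRBV4 and 1.16 times for TRBV5. It had rank 5 of 21 TRBV genes in the sCLN 5xFAD library and ranks 8 to 13 in the other 5 node libraries. Within the sCLN pair the log2 ratio of 5xFAD over WT was 1.23 (95% counting interval 0.83 to 1.64), the highest of the 21 genes. In the dCLN pair it was 0.33 (-0.02 to 0.68), and in the iLN pair -0.40 (-0.83 to 0.03). These intervals cover counting error only and compare libraries, not genotypes: 38.1% of TRBV genes in sCLN, 0% in dCLN and 42.9% in iLN had an interval that excluded 0. The corresponding ratios for TRBV4 lay between -0.23 and -0.05, and those for TRBV5 between -0.06 and 0.06, each with an interval that included 0.

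**Figure D2:**
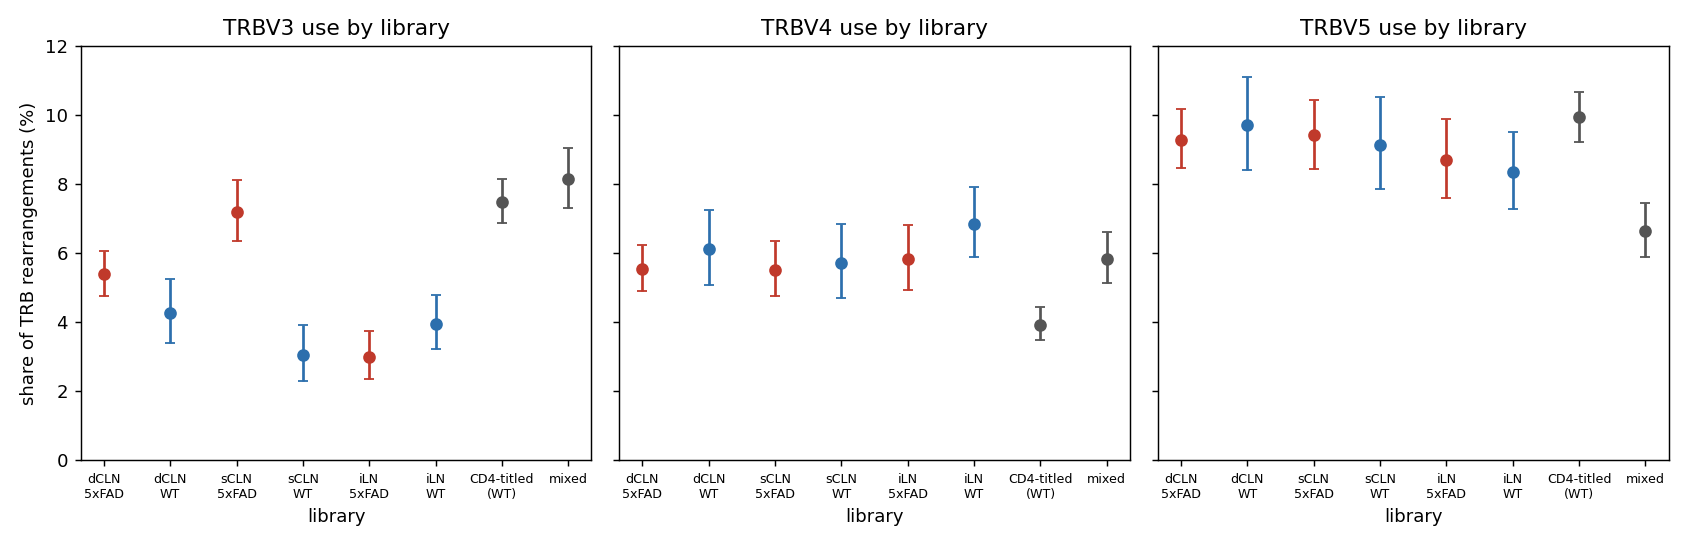
Share of all TRB rearrangements (%) taken by TRBV3, TRBV4 and TRBV5 in each of 8 libraries, with exact 95% intervals for counting error (red 5xFAD, blue WT, grey the CD4-titled library labelled WT and the mixed library). TRBV5 sits between 8.35% and 9.70% in the 6 node libraries, while TRBV3 lies between 2.99% and 7.20%.

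None of these differences passed the test over node types. No TRBV gene was called between genotypes (0 of 21, 0%; edgeR's quasi-likelihood test with Benjamini-Hochberg adjustment), with 2 of 21 at an unadjusted p under 0.05 and none by DESeq2. The fitted log2 ratio of 5xFAD over WT was 0.40 for TRBV3 (SE 0.34, adjusted p = 0.82), -0.14 for TRBV4 (SE 0.13, adjusted p = 0.82) and 0.01 for TRBV5 (SE 0.09, adjusted p = 0.94). The TRBV3 value was -0.0076 without the sCLN 5xFAD library and -0.0073 without sCLN WT, and 0.78 without iLN 5xFAD and 0.77 without iLN WT. TRBV3 averaged 5.19% ± 2.11 in 5xFAD and 3.75% ± 0.63 in WT libraries (SD, n = 3 each). TRBV4 averaged 5.62% ± 0.17 and 6.22% ± 0.58, and TRBV5 9.13% ± 0.39 and 9.06% ± 0.67, in the same order.

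No TRBV gene was called between node types either. Each of the 3 pairs of node types called 0 of 21 genes (0% each), and DESeq2 called none. At an unadjusted p under 0.05 there was 1 gene for dCLN over sCLN, 1 for dCLN over iLN and 0 for sCLN over iLN. For dCLN over sCLN the log2 ratios were -0.05 (TRBV3), 0.05 (TRBV4) and 0.03 (TRBV5). For dCLN over iLN they were 0.43, -0.12 and 0.16, and for sCLN over iLN 0.48, -0.17 and 0.12, in the same order of genes. Their SE was 0.41 to 0.42 for TRBV3, 0.15 for TRBV4 and 0.11 for TRBV5. The sign of each TRBV3 value depended on single libraries. For dCLN over iLN it was -0.13 without iLN 5xFAD and 1.05 without iLN WT. For sCLN over iLN it was -0.19 without sCLN 5xFAD and -0.094 without iLN 5xFAD, but 1.05 without sCLN WT and 1.08 without iLN WT. For dCLN over sCLN it was 0.69 without sCLN 5xFAD, 0.0083 without dCLN 5xFAD and -0.56 without sCLN WT.

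By likeness of log2 share over the 6 node libraries, the genes whose profile was most like that of TRBV3 were TRBV19 (Pearson r 0.80) and TRBV12-1 (0.63). For TRBV4 they were TRBV13-2 (0.66) and TRBV16 (0.48), and for TRBV5 they were TRBV12-1 (0.69) and TRBV23 (0.59). Shares of 1 library sum to a fixed total and the 6 libraries have unequal depth, so these values describe the profiles and nothing more. No member was among the 2 genes most like another member.

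The CD4-titled library labelled WT used TRBV3 more and TRBV4 less than the 2 dCLN node libraries. TRBV3 took 7.48% of its rearrangements (95% exact interval 6.86% to 8.14%), a log2 ratio of 0.47 (0.26 to 0.68) to the dCLN 5xFAD library and 0.81 (0.48 to 1.13) to the dCLN WT library. TRBV4 took 3.93% (3.48% to 4.43%), with log2 ratios of -0.49 (-0.73 to -0.25) and -0.64 (-0.94 to -0.33). TRBV5 took 9.93% (9.22% to 10.7%), with log2 ratios of 0.10 and 0.03 whose intervals included 0. Against the dCLN 5xFAD library alone 61.9% of the 21 genes had an interval that excluded 0. Of the 21 genes, 11 (52.4%) had intervals on the same side of 0 against both dCLN libraries, TRBV3 and TRBV4 among them. In the mixed library TRBV3 took 8.14% (7.31% to 9.03%), TRBV4 5.84% (5.13% to 6.61%) and TRBV5 6.64% (5.89% to 7.46%). The TRBV5 share there was lower than in each of the 6 node libraries, with log2 ratios of -0.55 to -0.33 and every interval below 0. In all, 5 of 21 genes (23.8%) had intervals on the same side of 0 against all 6. With 1 library each, neither difference has a replicate check.

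The V regions themselves separated these libraries. In the 6 node libraries TRBV4 and TRBV5 each came in 2 sequences over the first 270 bases of the aligned V region, the annotated one and a second one that the germline call named TRBV4*02 or TRBV5*05. A further 3 rearrangements of these 2 genes matched neither. TRBV3 had 1 sequence in all 8 tables, apart from 2 single rearrangements. The second TRBV4 sequence differed from the first at 9 bases and the second TRBV5 sequence at 5. The stretches that hold most of these differences are shown next, with the differing bases in capitals, because they allow the 2 sequences to be told apart without the allele call. The TRBV4 stretch covers bases 26 to 105 of the V region and 8 of the 9 differences, the TRBV5 stretch bases 140 to 251 and all 5.
TRBV4*01: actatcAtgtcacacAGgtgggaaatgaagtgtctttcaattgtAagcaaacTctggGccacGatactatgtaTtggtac
TRBV4*02: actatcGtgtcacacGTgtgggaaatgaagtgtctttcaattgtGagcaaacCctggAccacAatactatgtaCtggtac
TRBV5*01: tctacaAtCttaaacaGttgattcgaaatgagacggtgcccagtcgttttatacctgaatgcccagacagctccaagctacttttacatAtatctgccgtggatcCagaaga
TRBV5*05: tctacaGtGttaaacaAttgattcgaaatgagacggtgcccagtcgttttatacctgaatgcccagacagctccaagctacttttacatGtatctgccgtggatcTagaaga
Counted from the first aligned V base, the TRBV5 changes are A146G, C148G, G156A, A229G and C245T, and the remaining TRBV4 change is C248T.

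The TRBV4*02 sequence made up 22.1%, 15.5% and 11.97% of TRBV4 rearrangements in the 5xFAD libraries of dCLN, sCLN and iLN, and 17.6%, 18.7% and 14.3% in the WT libraries. The TRBV5*05 sequence made up 17.3%, 20.1% and 14.6% of TRBV5 in the 5xFAD libraries, and 14.3%, 13.5% and 14.1% in the WT libraries. TRBV5*05 was higher in 5xFAD at each node, by 3.37 percentage points on average, with an exact two-sided sign-flip permutation p of 0.25, the smallest that 3 nodes allow. TRBV4*02 differed by -0.35 points (exact permutation p = 1). In the CD4-titled library neither second sequence was found, in 0 of 263 TRBV4 rearrangements, which allows a share of up to 1.14%, and 0 of 664 of TRBV5, which allows up to 0.45%. In the mixed library there were 0 of 233, allowing up to 1.29%, and 0 of 265, allowing up to 1.13%. The mixed library is labelled with the same nodes and genotypes as the 6 node libraries, which all carried both sequences. The part of this difference in the other values of these 2 libraries was not tested.

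**Figure D3:**
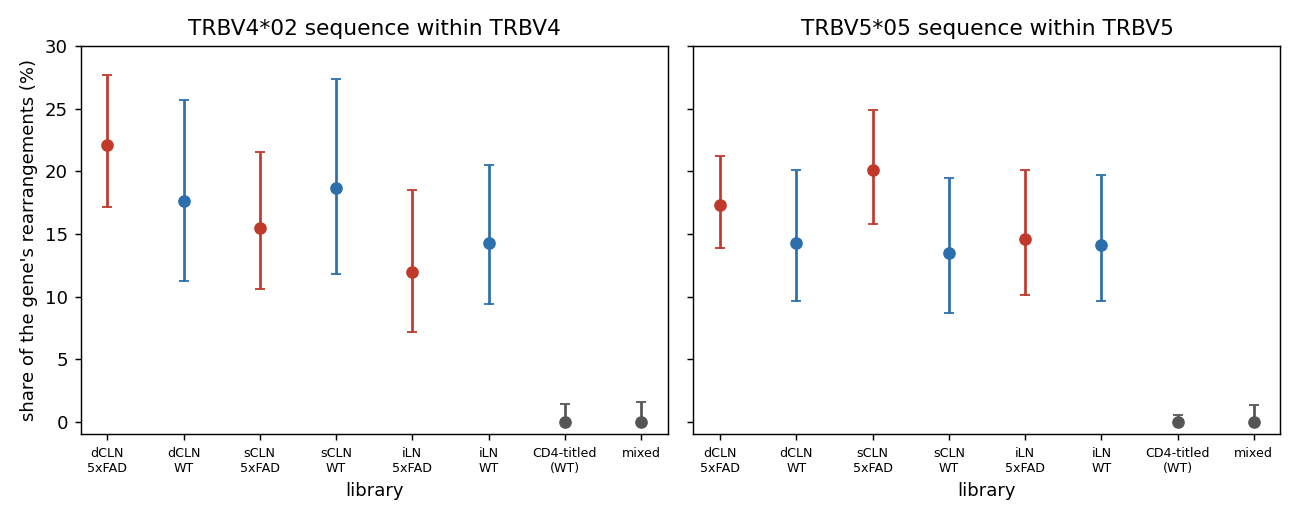
Share (%) of TRBV4 rearrangements with the TRBV4*02 sequence (left) and of TRBV5 rearrangements with the TRBV5*05 sequence (right) in each of 8 libraries, with exact 95% counting intervals (red 5xFAD, blue WT, grey the CD4-titled and mixed libraries). The 6 node libraries lie between 11.97% and 22.1%, and the CD4-titled and mixed libraries are at 0 for both.

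Junctions of the 2 sequences of a gene are given side by side, and their differences were not tested. TRBV5*05 rearrangements had a mean junction of 43.4 ± 0.63 nt and TRBV5*01 of 43.7 ± 0.26 nt, and TRBV4*02 had 41.8 ± 0.84 nt and TRBV4*01 41.4 ± 0.19 nt (SD, n = 6 libraries each). Counted against the annotated TRBV5 end for both, TRBV5*05 kept 15.4 ± 0.50 germline junction bases and TRBV5*01 kept 15.2 ± 0.11. The germline entry of TRBV5*05 stops short of that end, so its own end is not known here. TRBJ2 genes made up 77.6% ± 7.71 of TRBV5*05 and 68.5% ± 3.86 of TRBV5*01 rearrangements, and 74.2% ± 8.69 of TRBV4*02 and 71.3% ± 5.24 of TRBV4*01. Cell Ranger's own V calls in the same files named every TRBV4 contig of the 8 tables TRBV10. In the GENCODE annotation Trbv10 is a separate segment, a pseudogene. The older name of TRBV4 is Vβ10, and the reason for the differing calls was not tested.

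TRBJ choice was compared with that of the other TRBV genes, and 2 pairs of TRBV3 and 1 of TRBV5 passed. Over all TRBV and TRBJ pairs, 20 of 220 (9.09%) passed the test against the other TRBV genes, and among the members' pairs 3 of 35 did, a share close to that background. Each of the 3 missed the threshold without at least 1 of the 6 libraries. TRBV3 joined TRBJ1-4 in 3.19%, 3.28% and 1.37% of its rearrangements in the 5xFAD libraries of dCLN, sCLN and iLN, and in 3.61%, 3.51% and 6.19% in the WT libraries. The other TRBV genes joined it in 5.96% to 7.51%, above TRBV3 in 6 of 6 libraries. The fitted log2 ratio was -0.89 (SE 0.25, adjusted p = 0.011), and the adjusted p was 0.060 without the sCLN 5xFAD library. These shares rest on 28 rearrangements in all.

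TRBV3 joined TRBJ2-5 more often, in 20.3%, 16.4% and 23.3% of its rearrangements in the 5xFAD libraries and in 18.1%, 17.5% and 15.5% in the WT libraries. The other genes joined it in 13.3% to 14.5%, below TRBV3 in 6 of 6 libraries. The log2 ratio was 0.40 (SE 0.11, adjusted p = 0.022), with an adjusted p of 0.16 without the dCLN 5xFAD library and 0.072 without the iLN 5xFAD library. Another pair was under the minimum of 10 and was not tested: TRBV3 joined TRBJ1-6 in 7 of 805 rearrangements of the node libraries, 0.77% ± 0.62 against 3.31% ± 0.55 for the other genes (SD, n = 6), and in 3 of 500 and 2 of 325 in the CD4-titled and mixed libraries. That pair was named after its values had been seen.

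TRBJ genes lie in 2 clusters, each behind its own D segment, and TRBV3 favoured the second. TRBJ2 genes made up 75.3%, 77.9% and 82.2% of TRBV3 rearrangements in the 5xFAD libraries of dCLN, sCLN and iLN, and 69.9%, 86.0% and 73.2% in the WT libraries. The other TRBV genes had 63.1% to 69.6%, and TRBV3 was higher in 6 of 6 libraries, by 10.9 points on average (SE 1.92, limma, adjusted p = 3.6e-05). This difference stayed past the threshold with each library left out, at 9.16 to 12.3 points. TRBV4 was 4.81 points higher (SE 1.81, adjusted p = 0.030), a call that only the fit without the sCLN 5xFAD library kept among the 6 that left out a library, with adjusted p of 0.064 to 0.096 in the others. TRBV5 was 3.33 points higher (SE 1.79, adjusted p = 0.11). TRBJ2 share passed for 10 of 18 TRBV genes (55.6%).

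The TRBV3 pattern was smaller in the 2 libraries that no test used. TRBJ2 genes made up 64.2% of TRBV3 rearrangements in the CD4-titled library (95% exact interval 59.8% to 68.4%), against 61.5% for the other genes, and 65.8% (60.4% to 71.0%) against 61.8% in the mixed library. TRBJ1-4 took 6.40% of TRBV3 against 7.16% of the others in the CD4-titled library, and 7.69% against 7.39% in the mixed one. TRBJ2-5 took 13% against 12.4%, and 12.9% against 12.3%. Each of these log2 ratios had an interval that included 0. The sample titles, depth and V sequences of these 2 libraries differ from those of the node libraries, and the part of each in the difference was not tested.

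TRBV5 joined TRBJ1-2 less often than the other genes. It did so in 4.62%, 3.13% and 2.36% of rearrangements in the 5xFAD libraries of dCLN, sCLN and iLN, and in 3.17%, 2.34% and 4.88% in the WT libraries, against 4.46% to 7.03% for the other genes, which were higher in 6 of 6 libraries. The log2 ratio was -0.62 (SE 0.19, adjusted p = 0.022). The adjusted p was 0.060 without sCLN 5xFAD, 0.072 without sCLN WT, 0.10 without iLN 5xFAD and 0.055 without iLN WT. In the CD4-titled library the share was 2.26% against 6.59%, a log2 ratio of -1.50 (-2.22 to -0.78), and in the mixed library 1.89% against 7.003%, a log2 ratio of -1.76 (-2.97 to -0.56). TRBV5 was thus below the other genes in 8 of 8 libraries. TRBJ1-3 (log2 ratio -0.50, SE 0.19) and TRBJ2-4 (-0.39, SE 0.14) were also lower for TRBV5 in 6 of 6 node libraries, each with an adjusted p of 0.071.

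No TRBJ gene passed for TRBV4, and 4 of its 12 pairs had an unadjusted p under 0.05. No TRBJ gene was higher or lower for TRBV4 in 6 of 6 libraries. TRBV4 used TRBJ1-6, the gene that TRBV3 all but left out, in 5.19% ± 2.42 of rearrangements, against 3.06% ± 0.55 for the other genes (SD, n = 6), and the lowest adjusted p among its pairs was 0.071.

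**Figure D4:**
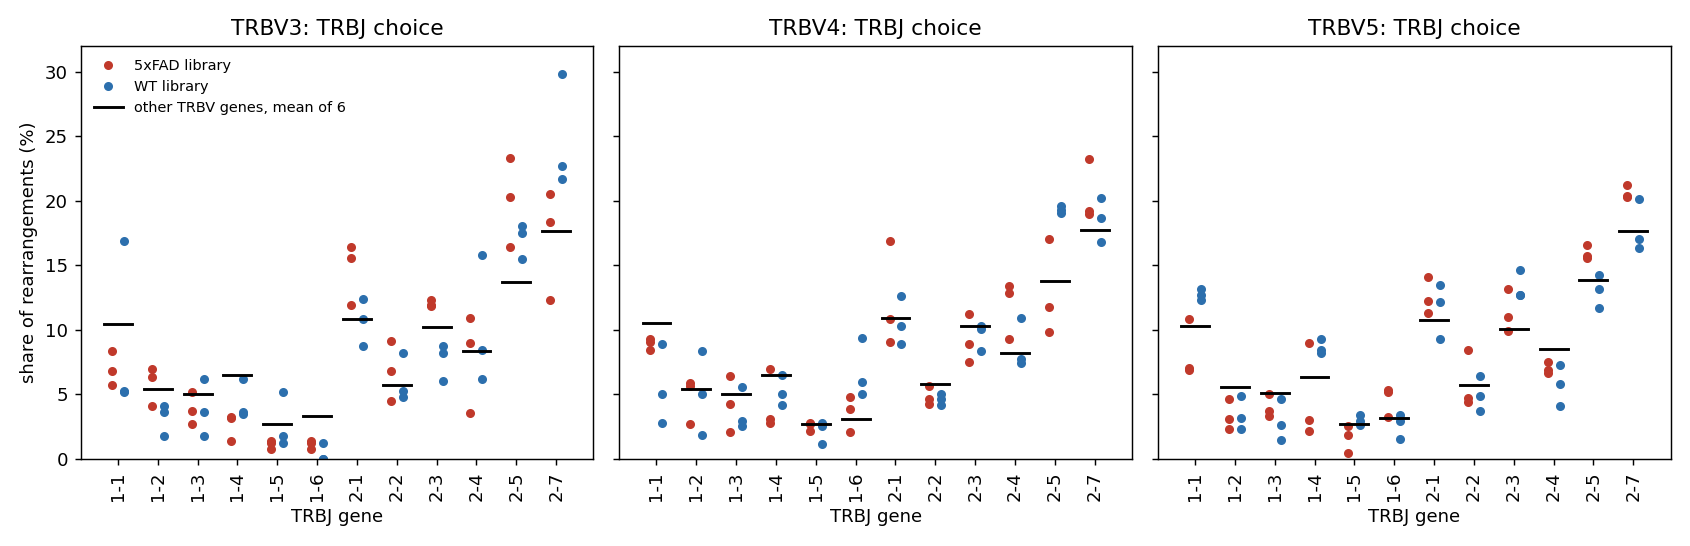
Share (%) of TRBV3, TRBV4 and TRBV5 rearrangements joined to each TRBJ gene, 1 point per node library (red 5xFAD on the left, blue WT on the right), with a bar at the mean of the other TRBV genes over the same 6 libraries. TRBV3 points lie below the bar at TRBJ1-4 and TRBJ1-6 and above it at TRBJ2-5, and TRBV5 points lie below it at TRBJ1-2.

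The D segment followed. Among contigs with a D call, TRBD2 was named in 48.6% ± 9.16 of TRBV3, 48.5% ± 6.75 of TRBV4 and 46.0% ± 2.99 of TRBV5 rearrangements, and in 41.0% to 41.1% of those of the other TRBV genes on average (SD, n = 6). The differences were 7.46, 7.45 and 4.94 points, with adjusted p of 0.048, 0.037 and 0.042 by limma, and 9 of 18 genes passed (50%). Since each TRBJ cluster lies behind its own D segment, the TRBD2 share is not independent of the TRBJ2 share. The part of the TRBJ2 share in the TRBD2 differences was not tested. Of the 6 fits that left out a library, 5 lost the TRBV3 call (5.39 to 7.78 points, adjusted p = 0.064 to 0.16), all but the one without iLN WT. Without dCLN 5xFAD, dCLN WT or iLN 5xFAD the TRBV4 call was lost (5.57 to 6.67 points, adjusted p = 0.079 to 0.12), and the TRBV5 call was lost without any of the 6 (4.09 to 5.85 points, adjusted p = 0.051 to 0.11). In the CD4-titled library TRBD2 was named in 46.4% of TRBV4 and 43.2% of TRBV5 rearrangements, against 37.6% and 37.3% for the other genes. For TRBV3 it was 38.7% against 37.9% there. In the mixed library TRBD2 was named in 55.7% of TRBV4 and 43.7% of TRBV5 rearrangements, against 37.7% and 38.5%. TRBV3 lay below the other genes in the mixed library, at 36.8% against 39.0%.

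Between genotypes no TRBJ choice passed: 0 of 220 pairs (0%) were called, and 9 (4.09%) had an unadjusted p under 0.05, 4 of them among the members' 35. The lowest p was that of TRBV5 with TRBJ1-4, which is named for that reason. TRBJ1-4 was used in 3.00%, 2.19% and 8.96% of TRBV5 rearrangements in the 5xFAD libraries of dCLN, sCLN and iLN, and in 8.47%, 8.19% and 9.27% in the WT libraries. Both cervical nodes differed by more than counting error, with log2 ratios of 5xFAD over WT of -1.48 (-2.49 to -0.47) in dCLN and -1.85 (-3.09 to -0.60) in sCLN, against -0.05 (-0.91 to 0.81) in iLN. Of the 220 pairs, 2.27% had such an interval that excluded 0 in dCLN, 1.36% in sCLN and 3.64% in iLN. The difference between 2 nodes had an interval that excluded 0 for 2.73% of the pairs (sCLN minus iLN), 1.82% (dCLN minus iLN) and 2.27% (sCLN minus dCLN). The fitted log2 ratio was -0.96 (SE 0.29, adjusted p = 0.43). It was -1.64 without either iLN library, with an adjusted p of 0.036 without iLN 5xFAD and 0.012 without iLN WT, and -1.10 when barcodes were counted (adjusted p = 0.049). In the CD4-titled library TRBJ1-4 took 7.23% of TRBV5 rearrangements, and in the mixed library 7.55%.

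No junction measure of the 3 segments passed between genotypes. Of the 90 combinations of gene and measure, 1 passed (1.11%), the junction length of a gene other than the 3 segments (1 of 18, 5.56%). The difference in mean junction length, 5xFAD minus WT, was 0.16 nt for TRBV3 (SE 0.34), 0.06 nt for TRBV4 (SE 0.31) and -0.29 nt for TRBV5 (SE 0.32), with adjusted p of 0.94 to 0.97 by limma. The TRBJ2 share of TRBV5 was 73.4% ± 1.87 in 5xFAD and 66.6% ± 2.20 in WT libraries (SD, n = 3 each), a difference of 6.80 points that did not pass (adjusted p = 0.52).

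Alpha partners came from cells with both chains, 540 clonotypes of TRBV3, 597 of TRBV4 and 836 of TRBV5 in the 6 node libraries. Of 207 pairs of a TRBV gene and a TRAV subgroup tested against the other TRBV genes, 1 was called (0.483%), TRBV5 with TRAV6, a large subgroup of near-identical duplicated segments. TRAV6 made up 30.6%, 32.1% and 21.8% of TRBV5 clonotypes in the 5xFAD libraries of dCLN, sCLN and iLN, and 18.6%, 33.3% and 22.5% in the WT libraries. The clonotypes of the other TRBV genes had TRAV6 in 20.6%, 19.6% and 23.7% in the 5xFAD libraries, and in 18.2%, 19.7% and 18.3% in the WT libraries. TRBV5 was higher in 5 of 6 libraries, by a wide margin in dCLN 5xFAD, sCLN 5xFAD and sCLN WT alone.

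The fitted log2 ratio was 0.48 (SE 0.09, adjusted p = 0.0011 by edgeR's quasi-likelihood test). It was 0.44 without the dCLN 5xFAD library (adjusted p = 0.093) and 0.40 without the sCLN 5xFAD library (adjusted p = 0.18), so the call needed both. The SE of 0.09 draws on all pairs together and not on this pair alone. The TRAV6 share of TRBV5 itself ranged from 18.6% to 33.3% over the 6 libraries. The 232 clonotypes, each counted once, had as many distinct alpha and beta junctions as clonotypes within each library, and in the dCLN 5xFAD library the 72 clonotypes spread over 35 TRAJ and 12 TRBJ genes. The commonest copy, TRAV6D-7, gave 36.2% of the TRAV6 chains beside TRBV5 and 38.6% of those beside other TRBV genes. TRAV6-5 gave 11.6% beside TRBV5 and 6.94% beside the others, and TRAV6-4 gave 3.02% and 5.42%, differences that were not tested. TRAV6 stood in 28.6% of TRBV5*05 clonotypes (21.1% to 37.05%) and 27.7% of TRBV5*01 clonotypes (24.4% to 31.1%), node libraries pooled. Single libraries went both ways on few TRBV5*05 clonotypes. In sCLN WT the share was 77.8% (7 of 9) for TRBV5*05 against 28.7% for TRBV5*01, and in iLN WT it was 5.88% (1 of 17) against 25%. In the CD4-titled library TRAV6 made up 17.1% of TRBV5 clonotypes and 16.5% of the others, and in the mixed library 13.2% and 15.1%, with log2 ratios of 0.06 (-0.24 to 0.36) and -0.18 (-0.72 to 0.37). Both intervals included 0.

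**Figure D5:**
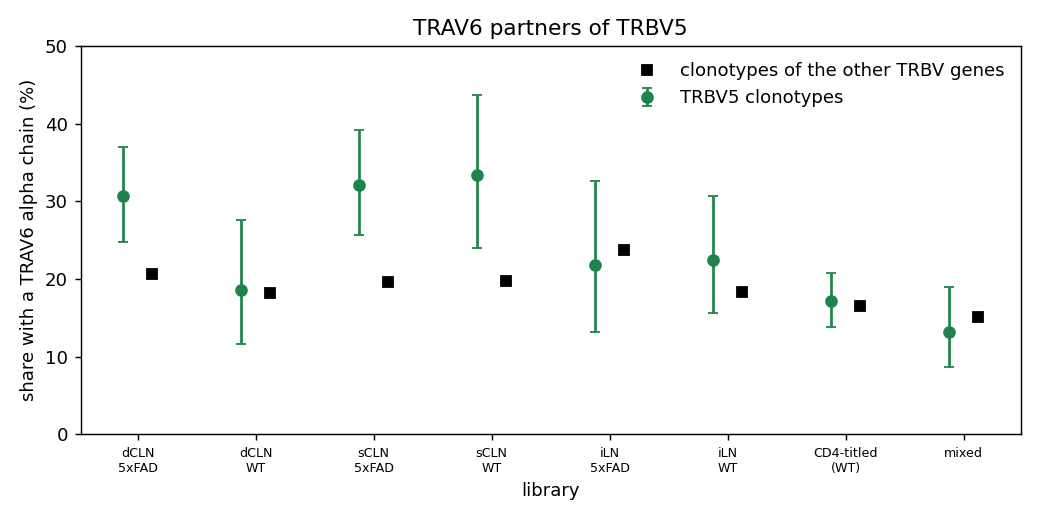
Share (%) of TRBV5 clonotypes (green circles, exact 95% counting intervals) and of clonotypes of the other TRBV genes (black squares) with a TRAV6 alpha chain, in each of 8 libraries. TRBV5 lies well above the others in dCLN 5xFAD, sCLN 5xFAD and sCLN WT, near them in the other node libraries, and at 17.1% and 13.2% in the CD4-titled and mixed libraries.

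No other alpha partner passed. TRBV3 was paired with TRAV14 in 12.96% ± 3.81 of clonotypes, against 8.37% ± 1.13 for the other genes, higher in 6 of 6 libraries (log2 ratio 0.60, SE 0.20, adjusted p = 0.21). With TRAV8 it had a log2 ratio of -0.08. TRBV4 was paired with TRAV10 in 4.45% ± 1.45, against 2.64% ± 0.41 for the others, higher in 5 of 6 libraries (log2 ratio 0.74, SE 0.31, adjusted p = 0.27). Its ratios with TRAV16 and TRAV12 were -0.51 and 0.37 (adjusted p = 0.51 for both). TRBV5 had ratios of -0.41 with TRAV8 and -0.17 with TRAV7 (adjusted p = 0.51 and 0.83).

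Repeated rearrangements, those seen in 2 or more barcodes of a library, were rare for all 3 segments. For TRBV3 they made up 0.40%, 4.51% and 0% in the 5xFAD libraries of dCLN, sCLN and iLN, and 3.61%, 3.51% and 3.09% in the WT libraries. For TRBV4 they made up 1.94%, 2.67% and 3.52% in the 5xFAD libraries, and 10.9%, 2.80% and 3.57% in the WT libraries. For TRBV5 they made up 2.77%, 2.51% and 0.94% in the 5xFAD libraries, and 8.99%, 4.09% and 4.39% in the WT libraries. The dCLN WT library had the highest share for each segment, TRBV3 in sCLN 5xFAD excepted, and for the other TRBV genes too, at 8.58% to 8.95%.

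TRBV4 and TRBV5 were lower in 5xFAD at each of the 3 nodes, by 3.06 and 3.75 points on average, and TRBV3 at 2 of 3, by 1.77 points. The exact two-sided sign-flip permutation p was 0.25, 0.25 and 0.50, and 3 nodes cannot give less than 0.25. The TRBV genes other than TRBV5 were also lower in 5xFAD at each node. Their shares in 5xFAD and WT were 2.06% and 8.69% in dCLN, 3.87% and 4.64% in sCLN, and 1.93% and 3.73% in iLN. Lower values in 5xFAD were thus not particular to TRBV5. That set of genes includes TRBV3 and TRBV4, and the share of the genes outside the 3 segments alone was not computed. For TRBV4 in iLN the shares were close, at 3.52% and 3.57%. Against the other TRBV genes over 6 libraries TRBV3 differed by -1.68 points, lower in 5 of 6 (exact permutation p = 0.094), TRBV4 by 0.11 (p = 0.88) and TRBV5 by -0.20 (p = 0.63). The smallest p that 6 libraries allow is 0.031. The libraries differ in depth, and its part in these shares was not tested.

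The largest clone of any member was a TRBV5 clone of the CD4-titled library labelled WT. It joined TRBV5*01 to TRBJ2-2 and was found in 12 of 6963 barcodes with a beta chain, 0.172% (exact interval 0.089% to 0.301%), or 1.70% of the 704 TRBV5 barcodes. Its beta contigs had 5 to 54 UMIs, with a median of 9. In 11 of the 12 barcodes the same alpha chain was found, TRAV5D-4 joined to TRAJ40, with 2 to 17 UMIs, and the remaining barcode had no alpha chain. No barcode of the clone had a second alpha or beta chain, and its alpha junction was found in no other barcode of the 8 tables. The junctions of both chains are shown because they identify the clone, and the beta junction has the bases after the kept germline V end in capitals.
TRBV5–TRBJ2-2: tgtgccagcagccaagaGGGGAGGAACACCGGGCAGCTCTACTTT
TRAV5D-4–TRAJ40: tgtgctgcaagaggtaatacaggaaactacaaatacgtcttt
The beta junction kept all 17 germline V bases and had 15 codons. The median of TRBV5 in that library was 14 codons, and 45.6% of its rearrangements had 15 or more.

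The same amino acids were coded a second time by other bases. In the iLN WT library 1 TRBV5–TRBJ2-2 rearrangement differed from the clone at 3 bases, in capitals below, and coded the same residues.
iLN WT: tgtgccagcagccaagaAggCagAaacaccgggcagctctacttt
CD4-titled: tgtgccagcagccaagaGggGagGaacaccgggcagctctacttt

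The second clone of the CD4-titled library was also of TRBV5, joined to TRBJ1-4, with 8 barcodes and 1 to 16 UMIs. All 8 had an alpha chain, and TRAV4-4/DV10–TRAJ48 was that of 7 of them. The 8 barcodes held 2 different alpha chains in all, 1 barcode had 2 beta chains, and the commoner alpha junction was found in 1 further barcode of the 8 tables. The residues of the beta junction were coded by other bases in 3 further rearrangements, 2 in the same library and 1 in the mixed one. The first of these, in the same library, was itself found in 3 barcodes and is shown above the clone, with the differing base in capitals.
other rearrangement: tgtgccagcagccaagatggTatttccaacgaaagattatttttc
TRBV5–TRBJ1-4 clone: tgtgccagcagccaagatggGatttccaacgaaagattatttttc
TRBV3 and TRBV4 had no clone over 3 barcodes in the CD4-titled library, and in the mixed library a TRBV4–TRBJ2-2 clone had 6 barcodes.

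Few rearrangements recurred between libraries. For TRBV3, 0.68% of 1619 rearrangements distinct over the 8 tables stood in 2 or more of them. The share was 0.61% of 1468 for TRBV4 and 1.32% of 2424 for TRBV5, beside 0.76% for the other TRBV genes. TRBV5 had 2 rearrangements in 3 tables, and TRBV3 and TRBV4 had none. The other TRBV genes had 10 of 21707 in 3 or more tables, with at most 4 tables for 1 rearrangement. The first was shared by dCLN WT, sCLN WT and the mixed library, the second by the 3 5xFAD node libraries. Node libraries of 1 genotype may come from the same animals, so that a shared rearrangement may be 1 clone in several nodes. The most widely shared rearrangements by tables and then barcodes are shown, with the bases after the kept germline V end in capitals.
TRBV5–TRBJ2-1: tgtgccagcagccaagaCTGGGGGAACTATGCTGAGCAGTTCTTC
TRBV5–TRBJ2-2: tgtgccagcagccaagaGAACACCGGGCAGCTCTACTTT
TRBV5–TRBJ1-1: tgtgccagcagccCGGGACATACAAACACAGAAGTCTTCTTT
TRBV4–TRBJ2-7: tgtgccagcagctCCTATGAACAGTACTTC
TRBV4–TRBJ2-4: tgtgccagcagctTAAACACCTTGTACTTT
TRBV4–TRBJ1-2: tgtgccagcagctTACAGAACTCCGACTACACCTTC
TRBV3–TRBJ1-1: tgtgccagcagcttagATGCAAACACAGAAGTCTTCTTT
TRBV3–TRBJ1-2, first: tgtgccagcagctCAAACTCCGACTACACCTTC
TRBV3–TRBJ1-2, second: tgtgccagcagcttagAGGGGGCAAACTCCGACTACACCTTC
These junctions had 0 to 5 added bases, and those of TRBV4 were short, with 10 to 12 codons.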

How the data were processed

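Single-cell receptor libraries were made from lymph node immune cells with a 10x 5′ kit, per the labels' protocols. The submitters' processing notes name Cell Ranger 6.0.1, Seurat 4.1.0 and mm10, and the file headers hold IgBLAST V, D and J calls. The deposited tables give 1 contig per line with its UMI count, its V identity as a fraction of aligned bases, and lengths in nucleotides. UMI counts were not normalized, per the file headers.

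From these, productive TRB contigs were reduced to distinct TRBV, TRBJ and junction combinations per library. A cell with both chains had 1 TRB and 1 or 2 TRA chains; barcodes with more were set aside as possible doublets, with no other doublet caller. Counts were tested with edgeR 4.0.16 (quasi-likelihood, totals as library sizes, minimum count 10), with DESeq2 1.42.0 as the alternative for use. Means per library were tested with limma 3.58.1, for genes with at least 10 rearrangements in each library. Adjusted p-values are Benjamini-Hochberg over all tests of a comparison, with a threshold of 0.05. These were 21 TRBV genes for use, 220 pairs for TRBJ choice and 207 pairs for TRAV partners. Junction measures were adjusted over 90 combinations of gene and measure together. Each gene was set against all other TRBV genes of the same libraries. Sign-flip permutation tests were exact and two-sided, and cannot give less than 0.03125 over 6 libraries or 0.25 over 3 nodes. Shares carry exact Clopper-Pearson 95% intervals, ratios of 2 libraries intervals with a pseudocount of 0.5, and a count of 0 allows 3 counts; all cover counting error only. The tests were checked on simulated data. R 4.3.3, Python 3.11.15, pandas 2.3.3, scipy 1.17.1 and matplotlib 3.10.9 were used.

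Members, lists and tests were chosen with earlier results of these data known. Named beside the members were every TRBJ gene and TRAV subgroup past the threshold, then the 2 TRBJ genes with the same direction in 6 of 6 libraries and the 3 TRAV subgroups (at least 20 clonotypes, 5 of 6 libraries) with the largest log2 ratios, the 2 genes most alike in use, the 3 junctions in most tables and the largest CD4-titled clone.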

Additional observations from a re-analysis of the deposited data

Results flagged for a closer look

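The 5xFAD over WT ratio of TRBV3 use differed between node types by more than counting error. On the log2 scale the ratio in sCLN exceeded that in iLN by 1.63 (95% counting interval 1.04 to 2.23), where 42.9% of 21 TRBV genes had an interval that excluded 0. The sCLN ratio exceeded the dCLN ratio by 0.90 (0.37 to 1.44; 33.3% of genes), and the dCLN ratio exceeded the iLN ratio by 0.73 (0.18 to 1.29; 28.6% of genes). TRBV3 had rank 3 of 21 by size in each of these. Each ratio rests on 1 library per genotype, so that differences between animals, libraries and genotypes cannot be told apart.

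The ratio of TRBJ1-4 among TRBV5 rearrangements also differed between node types. The sCLN ratio was lower than the iLN ratio, with a difference of -1.80 (-3.31 to -0.29), and so was the dCLN ratio, with a difference of -1.43 (-2.76 to -0.11). The difference of sCLN and dCLN, -0.37, had an interval that included 0 (-1.97 to 1.24). Of all 220 pairs of a TRBV and a TRBJ gene, 2.73% had an interval that excluded 0 for sCLN minus iLN, 1.82% for dCLN minus iLN and 2.27% for sCLN minus dCLN. This pair was chosen after its values had been seen, as the one with the lowest p between genotypes.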

How the results depend on the processing

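Of 682 recomputed values, 553 were classed as unchanged. For 539 of the 682 this meant the same direction and side of the threshold, which 436 kept. The other 143 included numbers of calls, which have no direction, and 117 of them were classed as unchanged. For junction measures limma called 50 of 90, medians in place of means called 25, and without 1 library limma called 32 to 46. The exact sign-flip test called 0 of 90 after adjustment. Its p cannot be under 0.03125 over 6 libraries. Adjusted over 90 combinations, it could call any only if most of them stood at that smallest p. Its 0 calls are therefore no check of the limma calls. Between genotypes junction measures gave 0 calls with medians, with full germline entries and without any 1 library, in place of 1. Counting barcodes gave 1 TRBJ call between genotypes in place of 0, the TRBV5–TRBJ1-4 pair. Without 1 library TRBJ calls against other genes were 9 to 18 (20 with all), TRBJ calls between genotypes 0 to 1, TRAV calls 0 to 1, use calls 0 to 1 between genotypes and 0 to 2 for dCLN over iLN, the last 2 for genes other than the members. Clonotypes of cells with both chains turned the sign of 4 small use ratios that never passed, TRBV5 between genotypes (-0.078) and, for dCLN over sCLN, TRBV3 (0.033), TRBV4 (-0.032) and TRBV5 (-0.0076). TRBV5 added bases turned to -0.17 with medians and -0.035 with full germline entries, and TRBV4 log2 UMIs to -0.0025 with barcodes and -0.020 with full entries. The genotype difference in junction length turned to -0.041 nt for TRBV3 and -0.042 nt for TRBV4 with D-called contigs, and to -0.16 nt for TRBV4 with full entries; the cause was not tested. Leaving out 1 library gave log2 use ratios between genotypes of -0.0076 to 0.78 for TRBV3 and -0.0091 to 0.051 for TRBV5. For dCLN over sCLN it gave -0.56 to 0.69 (TRBV3), -0.016 to 0.12 (TRBV4) and -0.021 to 0.091 (TRBV5), for TRBV3 in dCLN over iLN -0.13 to 1.05, and in sCLN over iLN -0.19 to 1.08. It gave -0.30 to 0.010 for TRBV3 with TRAV8, and genotype differences in length of -0.17 to 0.48 nt (TRBV3) and -0.019 to 0.12 nt (TRBV4). Without 1 node type, repeated rearrangements against other genes differed by -0.37 to 0.92 points (TRBV4) and -0.56 to 0.17 (TRBV5). TRBV calls were never ambiguous, so leaving such contigs out changed no TRB value. Pairing by replicate number or by animal was not possible, because each node and genotype has 1 library and the animals are not given. Genotypes were compared within nodes: every genotype fit had node type as a term, and the sign-flip tests between genotypes used differences within nodes.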
